A study of Homo sapiens with 6 samples.

Results

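The genes of the proteasome were followed in HepG2 cells, a human line derived from liver cancer, with and without a hairpin against the long non-coding RNA LINC01977. Members were the rows of the deposited table whose KEGG annotation lists the proteasome, which gave 43 of 29153 genes. They comprised 14 subunits of the 20S core, 19 subunits of the 19S cap, 4 inducible or tissue-specific catalytic subunits (PSMB8, PSMB9, PSMB10 and PSMB11), 4 genes of other activators, 1 inhibitor and 1 maturation factor. The rule reads the annotation column and no measured value.

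The libraries were made from total RNA of cells exposed for 72 h to lentivirus carrying a control hairpin (sh-NC, n = 3) or a hairpin against LINC01977 (sh-LINC01977, n = 3). According to the methods, infected cells were selected with puromycin, and nothing states whether the 3 libraries of a group came from separate cultures, so p-values measure only the spread between these libraries. The study examined how LINC01977 bears on the degradation of Notch2 through the ubiquitin and proteasome route, and the question addressed here was whether the genes of the degrading machine itself differed between the groups. No other alteration of the cells is stated for either group, and the labels name 1 hairpin against LINC01977.

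The total counts per library ranged from 49929024 to 60441515, and the members took 0.650% to 0.683% of them. LINC01977 itself had 4, 0 and 16 counts with sh-NC and 0, 0 and 4 with sh-LINC01977, so the knockdown was not detectable at this depth (edgeR fit without a filter, adjusted p = 0.580). The paper reports that it checked the knockdown in HepG2 cells by qRT-PCR. All 11 markers of HepG2 cells and hepatocytes passed the filter on low values, with ALB at 1380 to 1520 FPKM (fragments scaled to exon length and library total) with sh-NC and 694 to 724 FPKM with sh-LINC01977. ALB, AFP, APOA1, TF, SERPINA1 and HNF4A fell and none rose. Of 12 listed markers of other cell types, 5 passed the filter. The blood list summed to 625.6 to 633.2 FPKM against 543.0 to 557.7 FPKM, nearly all of it LYZ (lysozyme), while PTPRC, which marks all white blood cells, was at 0 in 5 libraries and at 0.00654 FPKM in the other. The fibroblast list summed to 2.878 to 3.956 FPKM against 5.470 to 7.569 FPKM, with COL3A1 at 0 in 5 libraries. Of its other members PDGFRB rose (log2 fold change 1.47, SE 0.21, adjusted p = 0.00620) and COL1A1 was higher in all 3 sh-LINC01977 libraries (0.73, SE 0.19, adjusted p = 0.0504). The endothelial list stayed at or below 0.4406 FPKM. The part of these shifts in the results below was not tested.

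The proteasome is the main protease of the cytosol and nucleus. Its 20S core is a barrel of 4 stacked rings, in which 7 kinds of alpha subunit form the outer gates and 7 kinds of beta subunit form the inner rings; 3 of the beta subunits, PSMB5, PSMB6 and PSMB7, cut proteins. The 19S cap recognizes ubiquitin chains, removes them, unfolds the substrate with a ring of ATPases and feeds it into the core. Interferon gamma induces PSMB8, PSMB9 and PSMB10, which replace the 3 constitutive catalytic subunits and make the immunoproteasome, a form that favours peptides for class I antigen presentation. Transcription of the constitutive subunits is raised together by NRF1 (NFE2L1) when proteasome activity is short.

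Most proteasome genes had similar levels in both groups. Of 42 tested members, 2 rose (PSMB3 and PSMB8) and 2 fell (PSMA3 and PSMA7) at an adjusted p under 0.05, beside 7.05% of all 13452 tested genes that rose and 8.07% that fell. No member passed a fold change of 2 with an unadjusted p of 0.05, which 2.6% of all genes did. At an unadjusted p under 0.05 there were 13 members of 42, beside 30.5% of all genes. All 3 sh-LINC01977 libraries lay above all 3 sh-NC libraries for 9 members, beside 18.8% of all genes, and below them for 9 members, beside 18.3%. These shares were near the background. With scaling to library totals in place of TMM, which corrects totals for composition, 4 members rose and 1 fell, while all genes went from 948 higher and 1085 lower to 1455 higher and 768 lower.

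The median log2 fold change of the 42 tested members was -0.042, beside -0.001 for all tested genes. For 34 members the 95% interval of the fold change lay within 1.5-fold in either direction, among them 19 of 19 subunits of the 19S cap and 11 of 14 of the 20S core. The 8 others were PSMA3, PSMA6, PSMB5, PSMB8, PSMB9, PSMB10, PSME3 and PSMF1. The same count was not made over all tested genes, so narrow intervals are not shown to be particular to the members.

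**Figure D1:**
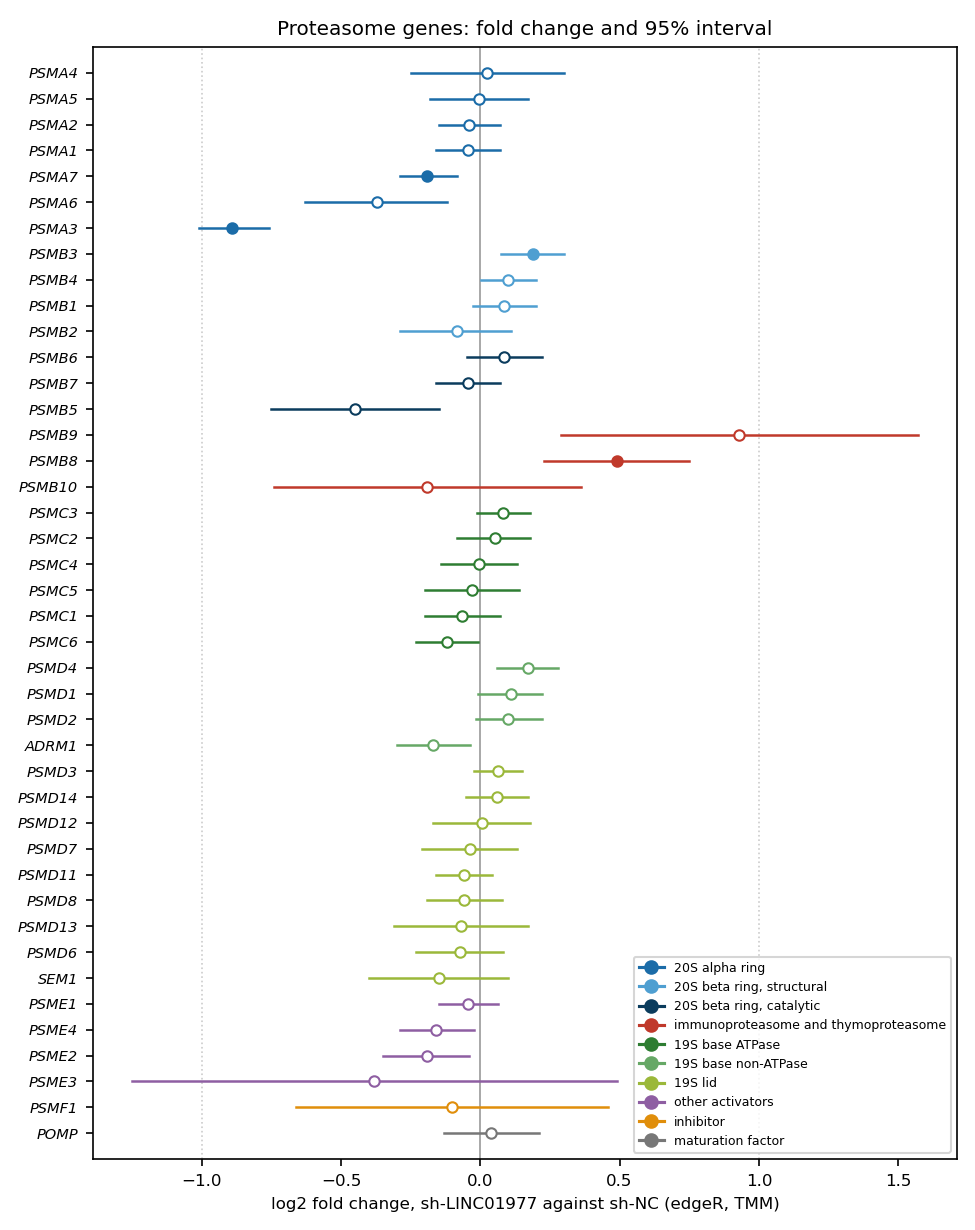
Each row is 1 of the 42 tested proteasome genes, grouped by role from the outer ring of the core at the top to the maturation factor at the bottom; the point is the log2 fold change of sh-LINC01977 against sh-NC on the horizontal axis, the line its 95% interval, and filled points have an adjusted p under 0.05. PSMA3 at -0.89 stands apart from the other alpha subunits, and the rows of the 19S cap lie between -0.17 and 0.17.

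The clearest difference was in the outer ring of the core. PSMA3 (ENSG00000100567; chromosome 14, 58244831 to 58272012, plus strand, GRCh38) encodes an alpha subunit of that ring. Its level, in CPM (counts scaled by TMM to a common library size), was 92.5, 97.8 and 100 with sh-NC and 52.1, 52.8 and 51.9 with sh-LINC01977. The groups did not overlap, and the spread within each was small beside the gap. The mean fell from 96.8 ± 3.9 CPM to 52.3 ± 0.45 CPM (n = 3 each, ± SD). The log2 fold change was -0.89 (SE 0.052, adjusted p = 0.000518), a fold of 0.540 (95% interval 0.495 to 0.589). In a bulk library, fewer cells with a transcript and less of it per cell cannot be told apart. The gene was called in 14 of 14 alternative analyses, at log2 values of -0.92 to -0.78, including each of the 6 in which 1 library was left out.

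Other listed genes overlap PSMA3, and the strand on which reads were counted is not stated. PSMA3-AS1, on the other strand, had 1203, 994 and 1133 counts with sh-NC and 956, 1111 and 928 with sh-LINC01977 (log2 fold change -0.20, SE 0.083, adjusted p = 0.167). AL132989.1, on the same strand, stayed at 11 to 19 counts and C14orf37 at 4 to 36. PSMA3 itself had 4828 to 5888 counts against 2673 to 3212. The part of overlapping reads in its difference was not tested.

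The promoter windows of PSMA3, PSMB3 and PSMB8 are shown because these 3 of the 4 called members had an entry in the RefSeq table of promoters (assembly GRCh38.p14); PSMA7 had none. Each runs 5′ to 3′ on the gene's strand from 250 bases before the start site through 50 bases from it, with motif letters in capitals. PSMA3 lies at chr14:58244593-58244892 on the plus strand, PSMB3 at chr17:38752491-38752790 on the plus strand, and PSMB8 at chr6:32843998-32844297 on the minus strand.
PSMA3: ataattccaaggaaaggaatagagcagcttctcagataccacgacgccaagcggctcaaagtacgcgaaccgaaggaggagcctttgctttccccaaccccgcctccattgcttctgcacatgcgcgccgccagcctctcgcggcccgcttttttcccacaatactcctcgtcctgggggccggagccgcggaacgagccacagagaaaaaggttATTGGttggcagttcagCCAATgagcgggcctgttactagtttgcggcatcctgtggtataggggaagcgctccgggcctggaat
PSMB3: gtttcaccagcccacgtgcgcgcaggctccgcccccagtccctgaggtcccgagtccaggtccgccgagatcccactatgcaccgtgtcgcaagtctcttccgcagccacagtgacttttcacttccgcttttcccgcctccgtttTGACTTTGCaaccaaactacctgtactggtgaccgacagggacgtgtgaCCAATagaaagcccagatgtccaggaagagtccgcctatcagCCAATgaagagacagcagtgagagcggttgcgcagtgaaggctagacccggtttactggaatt
PSMB8: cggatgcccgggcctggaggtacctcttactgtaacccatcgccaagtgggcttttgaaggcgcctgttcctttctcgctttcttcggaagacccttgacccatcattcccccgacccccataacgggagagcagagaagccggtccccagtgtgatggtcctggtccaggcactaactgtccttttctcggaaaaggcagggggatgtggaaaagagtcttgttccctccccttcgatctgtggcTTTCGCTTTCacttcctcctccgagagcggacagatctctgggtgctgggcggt

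Capitals mark matches on either strand to 3 short motifs: the CCAAT box bound by NF-Y, the core of the antioxidant response element (TGACNNNGC) bound by NRF1 and NRF2 with small MAF partners, and the core of the interferon-stimulated response element (GAAA, any 2 bases, GAAA). The PSMA3 window holds 2 CCAAT boxes, with their first bases 35 and 18 bases before the start site. The PSMB3 window holds 2 CCAAT boxes, 55 and 13 bases before it, and 1 antioxidant response core, 104 bases before it. The PSMB8 window holds 1 interferon-stimulated response core on the reverse strand, 4 bases before the start site; PSMB8 has a second window in the table, further upstream, with none of the 3 motifs.

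The table held 49 windows for 38 of the 43 members, since some genes have several start sites. The antioxidant response core was in 14 of the 49 windows (28.6%), beside 13.3% of all 35116 windows. CCAAT was in 21 (42.9%), beside 34.6%, and the interferon-stimulated response core in 6 (12.2%), beside 3.57%. The 6 genes with the last motif were PSMA4, PSMB4, PSMB8, PSMB10, PSME1 and PSME2, of which only PSMB8 was called in the comparison of the groups. A match is a run of letters and shows no binding.

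Of the other 6 alpha subunits, PSMA7 fell and 5 did not pass the test. PSMA7 (ENSG00000101182; chromosome 20, 62136735 to 62143440, minus strand), which encodes another subunit of the ring, had 343, 346 and 366 CPM with sh-NC and 302, 305 and 318 CPM with sh-LINC01977. The groups did not overlap, with a log2 fold change of -0.19 (SE 0.044, adjusted p = 0.0334). PSMA7 was called in 4 of 14 alternatives and in 0 of the 6 that left out a library, where the adjusted p was 0.0588 to 0.102.

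PSMA6 ranged from 285 to 346 CPM with sh-NC and from 219 to 275 CPM with sh-LINC01977, without overlap, but with a spread that left it above the threshold (log2 fold change -0.37, SE 0.11, adjusted p = 0.0645). AL121594.3, which overlaps PSMA6 on the same strand, had 1247 to 1549 counts and 1153 to 2445 counts. PSMA1, PSMA2, PSMA4 and PSMA5, also of the outer rings, had log2 fold changes between -0.043 and 0.023, and their groups overlapped. The 7 alpha subunits had a median log2 fold change of -0.043.

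Of the 4 structural beta subunits, 1 rose and 3 did not pass the test. PSMB3 (ENSG00000277791; chromosome 17, 38752736 to 38764231, plus strand) had 193, 204 and 208 CPM with sh-NC and 226, 227 and 237 CPM with sh-LINC01977. It rose by a log2 fold change of 0.19 (SE 0.046, adjusted p = 0.0408), with no overlap of the groups. PSMB3 was called in 6 of 14 alternatives and in 0 of the 6 that left out a library, where the adjusted p was 0.0586 to 0.117, and with the replicate number as a block its adjusted p was 0.0598. PSMB4 had a log2 fold change of 0.10 (adjusted p = 0.156), PSMB1 of 0.086 (adjusted p = 0.266) and PSMB2 of -0.085 (adjusted p = 0.540). The median over these 4 was 0.095.

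**Figure D2:**
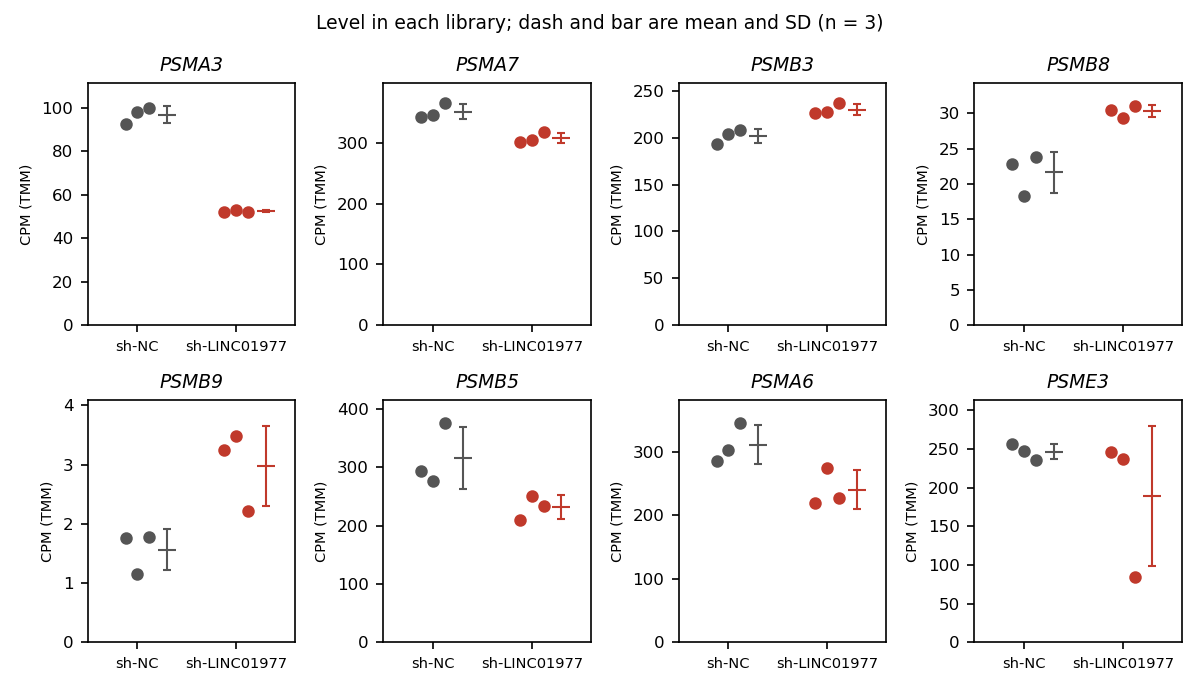
Each panel gives 1 gene, with TMM-scaled CPM on a vertical axis that starts at 0, 1 point per library, and the mean and SD of 3 libraries as a dash and bar. PSMA3 separates the groups by the widest margin relative to its spread, PSMB9 and PSMB8 are higher in all 3 sh-LINC01977 libraries, and in PSME3 a single sh-LINC01977 library at 84.9 lies far below the other 5.

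Among the 3 constitutive catalytic subunits, PSMB5 alone lay lower in all sh-LINC01977 libraries. PSMB5, which carries the chymotrypsin-like activity and is the main target of proteasome inhibitors used in myeloma, had 294, 277 and 376 CPM with sh-NC and 210, 251 and 234 CPM with sh-LINC01977. The third sh-NC library was the highest, and the log2 fold change of -0.45 did not pass the test (SE 0.13, adjusted p = 0.0592); without that library it was -0.30 (SE 0.086, adjusted p = 0.0894). PSMB6, with caspase-like activity, had 90.5, 81.6 and 88.0 CPM against 93.6, 91.7 and 90.7 CPM (log2 fold change 0.085, SE 0.056, adjusted p = 0.351). PSMB7, with trypsin-like activity, had 202, 190 and 186 CPM against 183, 192 and 186 CPM (log2 fold change -0.044, SE 0.049, adjusted p = 0.587). For PSMB6 and PSMB7 the 95% intervals of the fold were 0.967 to 1.16 and 0.895 to 1.05.

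Of the 3 inducible subunits, PSMB8 rose, PSMB9 lay higher without passing the test, and PSMB10 overlapped between the groups. PSMB8 (ENSG00000204264; chromosome 6, 32840717 to 32844703, minus strand, within the major histocompatibility complex) takes the place of PSMB5. It had 22.8, 18.3 and 23.8 CPM with sh-NC and 30.5, 29.4 and 31.0 CPM with sh-LINC01977. The groups did not overlap, and the log2 fold change was 0.49 (SE 0.11, adjusted p = 0.0296), a fold of 1.40 (95% interval 1.17 to 1.68). PSMB8 was called in 9 of 14 alternatives. Of the 6 that left out a library it was called in 2, without sh-NC replicate 2 and without sh-NC replicate 3, and in the other 4 the adjusted p was 0.0635 to 0.0861.

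PSMB9 (ENSG00000240065; chromosome 6, 32844136 to 32859585, plus strand), which takes the place of PSMB6, was far scarcer. It had 1.76, 1.16 and 1.77 CPM with sh-NC and 3.25, 3.48 and 2.21 CPM with sh-LINC01977, from 57 to 104 and 114 to 212 counts. All 3 sh-LINC01977 libraries were higher, with a log2 fold change of 0.93 (SE 0.27, adjusted p = 0.0631). PSMB10, which takes the place of PSMB7, had 10.3, 5.72 and 6.76 CPM against 6.09, 6.62 and 7.26 CPM (log2 fold change -0.19, SE 0.23, adjusted p = 0.620). One sh-NC library was high, and without it the log2 fold change was 0.093. PSMB11, the thymus-specific catalytic subunit, had 0 counts in 5 libraries and 1 count in 1 sh-LINC01977 library, and was below the filter.

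PSMB8 and PSMB9 are annotated head to head with overlapping ends, and the PSMB9 interval also holds TAP1, a subunit of the peptide transporter of class I antigen presentation. TAP1 had a log2 fold change of 0.036 (SE 0.093, adjusted p = 0.835), and PSMB8-AS1, an antisense RNA there, had 33 to 61 counts against 33 to 79. Reads of these overlapping genes cannot be assigned with certainty while the strand setting is not stated. CD68, expressed by macrophages and in lysosomes more widely, was 9.23 to 12.5 FPKM with sh-NC and 13.5 to 15.7 FPKM with sh-LINC01977 (adjusted p = 0.0627). In the same blood list PTPRC was at 0 in 5 of the 6 libraries, and LYZ fell (log2 fold change -0.27, SE 0.037, adjusted p = 0.00537). The part of these markers in the PSMB8 and PSMB9 values was not tested.

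The share of each inducible subunit among the sum with its constitutive counterpart, by FPKM and hence per length, is given as a description. For PSMB8 against PSMB5 it was 6.37%, 5.48% and 5.28% with sh-NC and 11.3%, 9.35% and 10.4% with sh-LINC01977, a mean of 5.71% ± 0.58 against 10.4% ± 0.99 (SD, n = 3 each). Both parts contributed, since PSMB8 was higher and PSMB5 lower in all 3 sh-LINC01977 libraries. For PSMB9 against PSMB6 the mean share was 0.824% ± 0.15 against 1.49% ± 0.32, and for PSMB10 against PSMB7 it was 3.61% ± 0.95 against 3.30% ± 0.28. With CPM per length of the longest coding transcript, the mean shares were 6.19% ± 0.63 against 11.2% ± 1.1 for PSMB8, 1.93% ± 0.35 against 3.44% ± 0.73 for PSMB9, and 3.05% ± 0.81 against 2.78% ± 0.24 for PSMB10. PSMB8 is the member whose deposited FPKM did not follow the joined exon length in any library. By both lengths the constitutive subunit made up most of each pair in both groups.

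**Figure D3:**
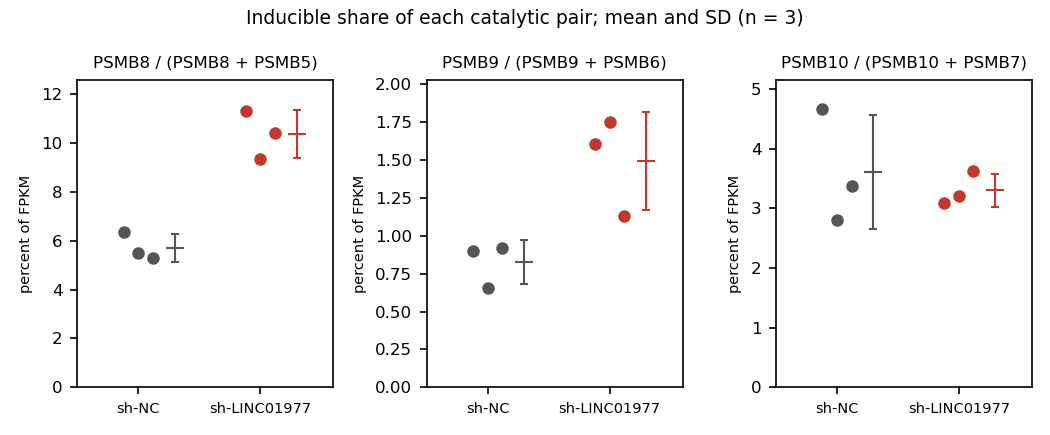
Each panel gives, for 1 pair of catalytic subunits, the inducible gene's percent of the summed FPKM of the pair on the vertical axis (from 0), with 1 point per library and the mean and SD of 3 libraries as a dash and bar. The PSMB8 share lies between 5.28% and 6.37% with sh-NC and between 9.35% and 11.3% with sh-LINC01977, while the PSMB10 shares overlap.

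None of the 19 subunits of the 19S cap was called by edgeR with TMM over the 13452 genes, and 3 of them (PSMD4, ADRM1 and PSMC6) had an unadjusted p under 0.05. The subunits lay between log2 fold changes of -0.17 and 0.17, with a median of -0.029. DESeq2, limma, edgeR with library totals and edgeR on genes of mean FPKM 1 or more each called 1 of them, PSMD4.

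The 6 ATPases of the base (PSMC1 to PSMC6), which unfold the substrate, had log2 fold changes from -0.12 (PSMC6, adjusted p = 0.144) to 0.083 (PSMC3, adjusted p = 0.216). PSMC1 is uncertain, since the listed copy PSMC1P1 had 2469 to 3287 counts of its own and reads can be split between near-identical copies. PSMA2, PSMA6 and PSME2 also have a listed copy each, and the part of these copies in their values was not tested. The ubiquitin receptors of the base moved in opposite directions without passing the test. PSMD4 (RPN10) had 194, 190 and 186 CPM with sh-NC and 210, 224 and 208 CPM with sh-LINC01977 (log2 fold change 0.17, SE 0.046, adjusted p = 0.0523). ADRM1 (RPN13) had 170, 160 and 177 CPM against 151, 145 and 156 CPM (log2 fold change -0.17, SE 0.054, adjusted p = 0.0894). The large scaffold subunits PSMD1 and PSMD2 lay at 0.11 (adjusted p = 0.187) and 0.10 (adjusted p = 0.216) on the log2 scale.

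The 9 lid subunits lay between -0.15 (SEM1, a small acidic protein, adjusted p = 0.366) and 0.062 (PSMD3, adjusted p = 0.298). PSMD14, the enzyme that removes ubiquitin chains from the substrate, had 174, 162 and 171 CPM against 177, 181 and 171 CPM (log2 fold change 0.060, SE 0.047, adjusted p = 0.440). No lid subunit had an unadjusted p under 0.05, and the 95% interval of PSMD14 ran from 0.964-fold to 1.13-fold.

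The alternative activators and the regulators had no call. PSME1 and PSME2, the interferon-inducible subunits of the PA28 ring, had 223, 218 and 230 CPM against 209, 224 and 217 CPM (PSME1, log2 fold change -0.044, SE 0.045, adjusted p = 0.554) and 155, 156 and 161 CPM against 126, 146 and 141 CPM (PSME2, log2 fold change -0.19, SE 0.064, adjusted p = 0.0924). PSME2 was lower in all 3 sh-LINC01977 libraries, opposite in sign to PSMB8 and PSMB9. The part of interferon in these values was not tested. PSME4, the large activator PA200, had 220, 227 and 240 CPM against 198, 201 and 217 CPM (log2 fold change -0.16, SE 0.056, adjusted p = 0.112).

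PSME3, the nuclear activator PA28 gamma, had 256, 247 and 236 CPM with sh-NC and 246, 237 and 84.9 CPM with sh-LINC01977. The third sh-LINC01977 library alone was low, which set the log2 fold change of -0.38 (SE 0.36, adjusted p = 0.529); without it the value was -0.028 (SE 0.055). BECN1, which overlaps PSME3 on the other strand, had 4194, 3790 and 5017 counts with sh-NC and 5160, 6446 and 4543 counts with sh-LINC01977, with no such low value in the third. PSMF1, the inhibitor PI31, varied within both groups, with 136, 176 and 101 CPM against 140, 149 and 96.4 CPM (log2 fold change -0.10, SE 0.23, adjusted p = 0.812). POMP, the chaperone that assembles the core, had 109, 106 and 122 CPM against 110, 121 and 115 CPM (log2 fold change 0.040, SE 0.071, adjusted p = 0.747).

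Between genes, levels were compared per length by FPKM. In the sh-NC libraries the 20S subunits ranged from 12.9 FPKM (PSMA4) to 160 FPKM (PSMA7), the 19S subunits from 7.07 FPKM (PSMD6) to 62.7 FPKM (ADRM1), and the 3 inducible subunits from 0.397 FPKM (PSMB9) to 8.55 FPKM (PSMB8). The deposited FPKM divides by the length of all annotated exons of a gene joined, within 2% for 41 of 42 tested members in 5 libraries and for 40 in the other, so genes with long rare isoforms read low. With CPM per kilobase of the longest coding transcript, the medians were 148 for the 20S core, 80.3 for the 19S cap and 6.24 for the inducible subunits. By either length the subunits of one particle, which are needed in equal numbers, differed in transcript level by more than the groups did.

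**Figure D4:**
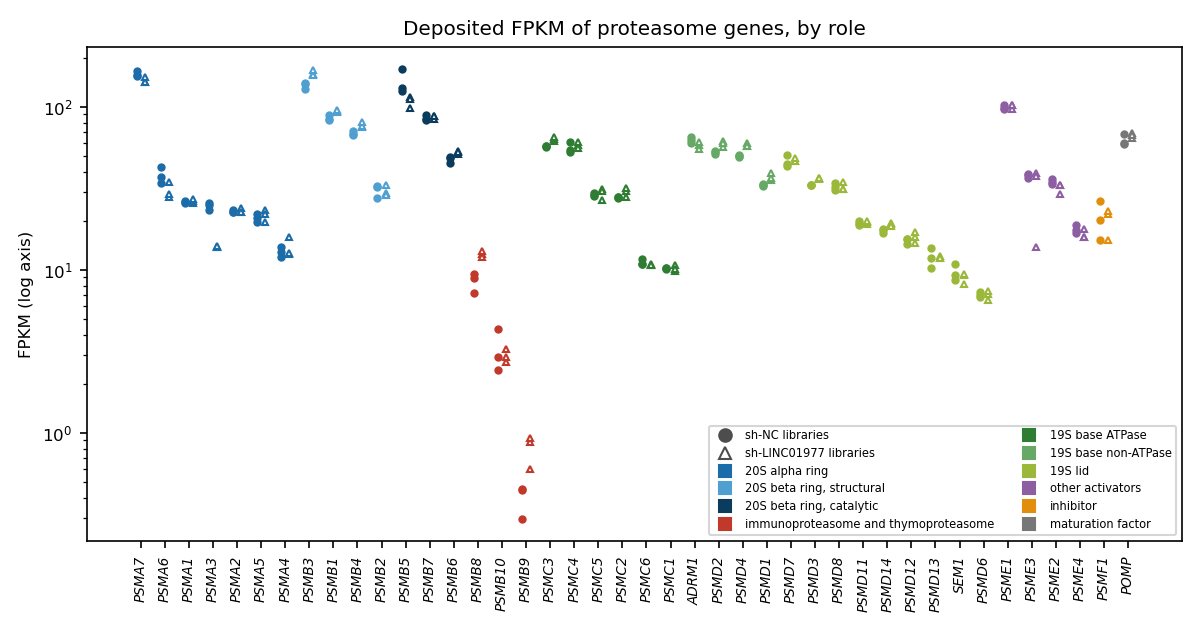
The deposited FPKM of the 42 tested proteasome genes is on a logarithmic vertical axis, with genes ordered by role and by level; filled circles are the 3 sh-NC libraries and open triangles the 3 sh-LINC01977 libraries. The inducible subunits PSMB8, PSMB10 and PSMB9 lie below nearly all others, between 0.397 and 8.55 FPKM on average with sh-NC, and most genes overlap between the groups.

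The summed FPKM of the 20S core was 901.1 ± 37 with sh-NC and 888.5 ± 27 with sh-LINC01977 (SD, n = 3 each). For the 19S cap it was 583.1 ± 4.7 and 615.1 ± 14. FPKM is scaled to library totals, under which the median log2 fold change was 0.024 for the 20S core and 0.037 for the 19S cap, the opposite sign to TMM (-0.042 and -0.029); over all tested genes it moved from -0.001 to 0.065. No direction is given for either particle as a whole.

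Genes that act with the proteasome were read from lists of related function. Of 22 tested assembly factors and partners, 0 rose and 3 fell, beside 7.05% and 8.07% of all tested genes. PSMD9, a chaperone that helps assemble the ATPase ring, had 26.0, 26.7 and 32.7 CPM with sh-NC and 12.3, 9.92 and 14.2 CPM with sh-LINC01977, a log2 fold change of -1.23 (SE 0.16, adjusted p = 0.00440). DDI2, the protease that cuts NRF1 into its active form, had a log2 fold change of -0.34 (SE 0.055, adjusted p = 0.00951), and ZFAND2A, a stress-induced partner of the cap, of -0.29 (SE 0.065, adjusted p = 0.0297). The median over this list was -0.039. Listed genes overlap PSMD9 (WDR66 and AC069503.2), DDI2 (RSC1A1) and ZFAND2A (AC091729.3). The part of overlapping reads in these differences was not tested.

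Of 16 tested genes that control transcription of the subunits, 0 rose and 2 fell (7.05% and 8.07% of all tested genes). The 2 were DDI2, counted above as well, and NPLOC4, a cofactor of the p97 ATPase (log2 fold change -0.27, SE 0.048, adjusted p = 0.0129), and the list's median was -0.10. NFE2L1, which encodes NRF1, had 167, 244 and 186 CPM with sh-NC and 203, 84.7 and 97.6 CPM with sh-LINC01977. The groups overlapped through the first sh-LINC01977 library, and the log2 fold change was -0.63 (SE 0.34, adjusted p = 0.261). NFE2L2, which encodes NRF2, had 76.2, 78.1 and 48.7 CPM against 137, 57.6 and 77.2 CPM, also overlapping (log2 fold change 0.42, SE 0.34, adjusted p = 0.445).

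Of 11 tested genes of interferon control and class I antigen processing, 3 rose and 0 fell (7.05% and 8.07% of all tested genes), with a median of 0.11. IFNGR1, a chain of the interferon gamma receptor, had 82.2, 84.8 and 87.7 CPM with sh-NC and 130, 129 and 126 CPM with sh-LINC01977 (log2 fold change 0.60, SE 0.047, adjusted p = 0.00113). JAK1, the kinase on that receptor, rose by 0.30 (SE 0.049, adjusted p = 0.00973) and ERAP2, a peptidase that trims antigenic peptides, by 0.36 (SE 0.086, adjusted p = 0.0349). IFNGR2, the other chain of the receptor, had 55.3, 69.5 and 55.2 CPM with sh-NC and 42.3, 44.1 and 51.0 CPM with sh-LINC01977, lower in all 3 libraries without passing the test (log2 fold change -0.39, SE 0.12, adjusted p = 0.0725). The transcription factor IRF1, which carries the interferon signal to genes, had a log2 fold change of 0.30 (SE 0.12, adjusted p = 0.141).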

How the data were processed

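Total RNA of HepG2 cells, isolated with TRIzol, was sequenced by a service provider (Illumina); the submitters' processing notes name bcl2fastq 2.0, HISAT2, StringTie, DESeq2, limma and hg38, without roles or strand setting. The authors deposited 1 table of 29153 genes. It holds counts, deposited as whole numbers, and the tool that made them is not stated. FPKM values were deposited beside them, scaled to library total and to exon length. The intervals of all 43 members equal those in GENCODE 29 (GRCh38).

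Libraries were grouped by their labels. Counts of 13452 genes (mean FPKM 0.5 or more) were tested with edgeR 4.0.16 in R 4.3.3 (quasi-likelihood test, TMM, Benjamini-Hochberg adjustment over all of them). On simulated counts with 200 changed genes, drawn from all levels, this test recovered 0% at a log2 fold change of 0.3, 72% at 1 and 94% at 2. False calls numbered 0, 10 and 11. The data differ from that setting, with 948 genes called higher and 1085 lower, and fewer changed genes make the adjustment stricter. PSMA7 at -0.19 and PSMB3 at 0.19 were called, so the simulated shares do not give the recovery for the members. A small difference without a call is still not shown to be absent. A call is an adjusted p under 0.05; the study's thresholds, a fold of 2 and p of 0.05, were also applied. SEs follow from the F statistic, and intervals are 95%. Alternatives were RLE scaling, library totals, no filter, a mean FPKM of at least 1, DESeq2 1.42.0, limma 3.58.1 on log2(FPKM + 0.1) and log2(FPKM + 1), the replicate number as a block, and each library left out. Named genes were those called, at most 16, with the catalytic pairs, PSME1 to PSME4, PSMF1 and POMP, the called genes of the other lists with NFE2L1 and NFE2L2, and LINC01977; other members are given by range or value. Marker lists were read from the same fit, and some genes of the other lists are not reported here. The members and lists were chosen with earlier results of these data known, and adjusted p-values are over all tested genes only. Motifs were searched in RefSeq promoter windows on both strands.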

Additional observations from a re-analysis of the deposited data

How the results depend on the processing

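PSMA3 kept its direction and its call in all 14 alternatives tried; PSMA7, PSMB3 and PSMB8 kept their direction in the 14 but not their call. With library totals, 4 members rose (PSMD4, PSMB8, PSMB9 and PSMB3) and 1 fell (PSMA3), beside 2 and 2 with TMM, and the medians were 0.024 (20S) and 0.037 (19S). Without a filter, 0 rose and 1 fell, and PSMB8 at 0.47 was no longer called (adjusted p = 0.0640); more genes were tested there. DESeq2 gave 4 and 4, adding PSMD4 and PSMB9 among the risen and PSMB5 and PSMA6 among the fallen. Limma on log2(FPKM + 0.1) and on log2(FPKM + 1) gave 3 risen and 1 fallen each, with medians of 0.022 and 0.021 (20S) and 0.032 and 0.031 (19S). A mean FPKM of at least 1 gave 3 and 2. PSMB9 passed the test with library totals (1.0, adjusted p = 0.0464) and with DESeq2 (0.93, adjusted p = 0.0198). Other causes were not tested.

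With 1 library left out, 0 to 1 members rose and 1 to 2 fell; PSMA6 was called lower without sh-LINC01977 replicate 2, and PSMA3 was called in each of these fits. The log2 fold change was 0.38 to 0.56 for PSMB8, 0.76 to 1.11 for PSMB9 and -0.36 to 0.093 for PSMB10, and the medians were -0.065 to -0.023 (20S) and -0.044 to -0.0016 (19S). Over all genes these fits called 549 to 669 higher and 627 to 738 lower, beside 948 and 1085.

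The replicate numbers did not pair the libraries: deviations of same-numbered libraries correlated at -0.029, 0.017 and 0.055. With the replicate block, 1 member rose (PSMB8) and 2 fell (PSMA3 and PSMA7), and all genes gave 636 higher and 754 lower.

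Depth limits PSMB9, PSMB11 and LINC01977, which had few counts; for the 19S cap the intervals leave room only for differences under 1.5-fold.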

Other observations

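The chromosomes of the members that lay lower in all 3 sh-LINC01977 libraries were looked at after their values were known, and the pattern was not tested. Of these 9 members, 5 are on chromosome 14 (PSMA3, PSMA6, PSMB5, PSMC6 and PSME2) and 2 on chromosome 20 (PSMA7 and ADRM1). Chromosome 14 holds 7 tested members, and 7 of them had a log2 fold change below 0, with a median of -0.19, while the 458 tested genes of the chromosome had a median of 0.014. Over all tested genes, 19.2% of those on chromosome 14, 20.9% of those on chromosome 20 and 18.3% of those on any chromosome lay lower in all 3 libraries. The other 2 members of chromosome 14, PSMC1 and PSME1, had values of -0.065 and -0.044, which under scaling to library totals became 0.00053 and 0.021.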
